A study of Mus musculus with 5 samples.

Results

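Cluster 2 of the authors' integrated clustering is a set of T cells with thymocyte marker transcripts, found among CD45+ cells sorted from mouse thyroids. Its members were all cells that the deposited cell table assigns to that cluster, 1007 of 10275 cells. NOD mice, a strain prone to autoimmunity, of both sexes entered the study at 4 to 6 weeks of age. One group of 16 mice received anti-PD-1 (clone RPM1-14) plus anti-CTLA-4 (clone 9D9) at 10 mg/kg per dose, a combination called immune checkpoint inhibition (ICI), and 10 mice received isotype control antibodies (clones 2A3 and MPC11). Injections were intraperitoneal and given 2 times a week for 4 weeks in both groups, after which the animals were perfused and live CD45+ single cells were sorted from collagenase-digested thyroids. Mice were pooled into 4 ICI libraries and 1 isotype library, and the number of mice per library is not given in the sources used here. Cluster 2 held 118, 20, 21 and 595 cells in ICI 1 to 4 and 253 in isotype.

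T cells are made in the thymus from precursors that first cut and rejoin their receptor genes with the recombinase Rag1 and Rag2. At the double-positive stage a thymocyte carries both coreceptors, CD4 and CD8. Cells whose receptor binds self-peptide on MHC with moderate strength are positively selected: they keep one coreceptor, gain the chemokine receptor Ccr7 and move to the medulla. There they mature, raise surface MHC class I and the sphingosine receptor S1pr1 under the factor Klf2, and leave. The thymus lies close to the thyroid and parathyroid glands in the neck.

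The 6 markers given for the cluster were read in each library. The cluster was made from these genes, so their levels describe it and do not test the label. Itm2a, a membrane protein of selected thymocytes, stood at 563, 59.2, 45.9 and 1771 CPM (UMIs per 1000000 UMIs, summed over the cluster's cells) in ICI 1 to 4 and at 1720 in isotype. Satb1, a chromatin organiser needed in developing T cells, stood at 1578, 59.2, 45.9 and 1919 CPM in ICI 1 to 4 and at 1948 in isotype. ICI 4 and isotype were thus high and close to each other, ICI 1 was lower for Itm2a, and ICI 2 and ICI 3 were near their detection floors of 88.8 and 138 CPM, the level of 3 UMIs. Sox4, a factor of early T cells, stood at 93.8, 0, 0 and 897 CPM in ICI 1 to 4 and at 1038 in isotype. Ccr9, the receptor that draws precursors to the thymic chemokine Ccl25, stood at 391, 0, 184 and 707 CPM and at 979. Tox, a factor required for CD4 lineage development, stood at 333, 88.8, 321 and 556 CPM and at 569, and Nab2, a partner of the Egr factors, at 115, 29.6, 138 and 232 CPM and at 193. The 6 markers were thus all present in ICI 1, ICI 4 and isotype, and were low or absent in ICI 2 and in part in ICI 3. In cluster 0, Satb1 was also low in ICI 2 and ICI 3, at 64.1 and 43.6 CPM. It stood there at 611 CPM in ICI 1, 1015 in ICI 4 and 1302 in isotype. Cluster 11 went the other way, with Satb1 at 7059 CPM in ICI 2 and 707 in ICI 3, from 12 and 2 UMIs. Whether the low levels belong to the cells of cluster 2 or to the libraries was not tested.

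**Figure D1:**
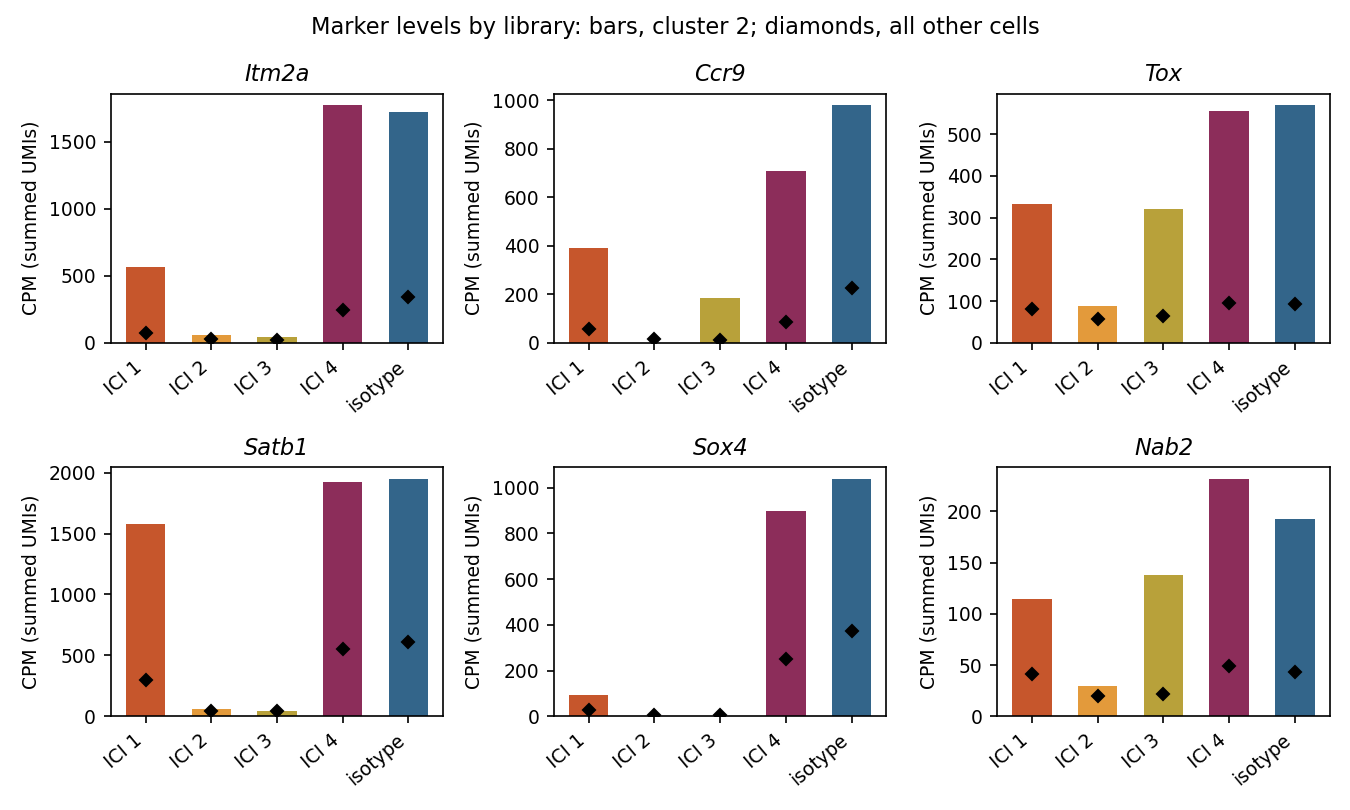
CPM of the 6 markers (vertical axes, linear from 0) by library (horizontal axes); bars are the summed cells of cluster 2 and diamonds all other cells of the same library, with 1 value per library and no error bar. Itm2a reached 1771 CPM in ICI 4 and 1720 in isotype, against 59.2 and 45.9 in ICI 2 and ICI 3.

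Effector transcripts were found among the 41 cells of ICI 2 and ICI 3. The chemokine Ccl5 stood at 917 and 3945 CPM in them, against 57.3 in ICI 1, 5.02 in ICI 4 and 5.32 in isotype. It was seen in 5 of 20 cells of ICI 2 and 12 of 21 of ICI 3, where 1 cell held 48.8% of its UMIs. Cxcr6, a receptor of tissue-resident T cells, stood at 1184 and 963 CPM in ICI 2 and ICI 3, against 41.7 in ICI 1, 2.01 in ICI 4 and 0 UMIs in isotype, and was seen in 13 and 10 cells of ICI 2 and ICI 3. These 2 libraries also held Cxcr6 in other T cell clusters. In cluster 0 it was seen in 87.97% of ICI 2 and 86.7% of ICI 3 cells. The shares there were 5.397% in ICI 1, 0.339% in ICI 4 and 1.68% in isotype. In cluster 3 it was seen in 80% and 76.5% of ICI 2 and ICI 3 cells, and in cluster 5 in 77.8% and 60%. The part of this library-wide difference in the cluster 2 levels was not tested. In ICI 3 the summed level of 11 myeloid genes was 8441 CPM, against 219 to 875 in the other libraries, and its Cd74 level of 4129 CPM came to 84.4% from 1 cell. Of the 21 ICI 3 cells, 11 carried a barcode that also occurs in ICI 2, and the pair of libraries shared 140 barcodes over all clusters. The main fold changes and list counts below are therefore given for all 4 ICI libraries and for ICI 1 and ICI 4 alone.

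The cluster's cells summed to 191995 UMIs in ICI 1, 33796 in ICI 2, 21798 in ICI 3, 1993763 in ICI 4 and 752460 in isotype. Median UMIs per cell were 1046.5, 1454.5, 571 and 3104 in ICI 1 to 4 and 2469 in isotype, and the median mitochondrial percent was 4.76, 1.03, 1.72 and 1.77 in ICI 1 to 4 and 1.54 in isotype. The libraries differed in sex: within the cluster the female-specific RNA Xist had 157 UMIs in ICI 1, 11 in ICI 2, 5 in ICI 3, 1 in ICI 4 and 0 in isotype. The Y-linked Eif2s3y stood at 15.6 CPM in ICI 1, 117 in ICI 4 and 154 in isotype, so ICI 4 and isotype were alike in both genes. Before integration, 70.3% of the cluster's ICI 1 cells fell in the authors' cluster 0, 64.9% of its ICI 4 cells in cluster 1 and 56.1% of its isotype cells in cluster 3 of that earlier clustering. With 1 isotype library, library and treatment cannot be told apart.

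By ratio of mean CPM to all other cells, the leading genes were Itm2a at 5.53, Ccr9 at 5.20, Tox at 4.35, Satb1 at 3.51 and Nab2 at 3.34. The next were Ephb6, Bach2, Tdrp, Lef1os1, Hivep3, Lef1, Sox4, Pde4d, Fas and Kcnmb4, from 3.33 down to 2.64. Bach2, a repressor that restrains effector fates, stood at 354 CPM in ICI 1, 301 in ICI 4 and 193 in isotype, and Lef1, a partner of beta-catenin, at 1182, 1335 and 1208 CPM. The cluster was made from these genes, so the ratios describe it and carry no test. General T cell transcripts were present in all 5 libraries: Cd3e, a signalling chain of the receptor, ranged from 1781 to 2308 CPM, and Trac, the alpha chain constant region, from 296 to 1468 CPM.

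Levels were then set beside those of 4 other T cell clusters, in ICI 4 and isotype, where all of them held at least 57 cells. Dntt, the enzyme that adds bases at receptor gene joints, stood at 775 CPM in ICI 4 and 865 in isotype in cluster 11 and at 720 and 623 in cluster 5, against 80.3 and 174 in cluster 2. Arpp21, a gene of immature thymocytes, stood at 501 and 530 CPM in cluster 11, at 240 and 208 in cluster 5 and at 32.1 and 97.0 in cluster 2. Mki67, a marker of cycling cells, stood in cluster 5 at 765 CPM in ICI 4 and 631 in isotype, against 2.51 and 5.32 in cluster 2. Itm2a was 1771 and 1720 CPM in cluster 2, against 129 and 50.4 in cluster 11 and 727 and 1130 in cluster 0. Ccr9 and Sox4 were higher in cluster 11 than in cluster 2. Ccr9 was 848 and 995 CPM in cluster 11, against 707 and 979 in cluster 2. Sox4 was 1147 and 1232 CPM in cluster 11, against 897 and 1038 in cluster 2. Tox, at 556 and 569 CPM, and Satb1, at 1919 and 1948, were higher in cluster 2. In cluster 11 Tox was 213 and 121 CPM and Satb1 1383 and 1197. Nab2 was 232 and 193 CPM in cluster 2 and at most 76.1 CPM in clusters 0, 3, 5 and 11 in these libraries.

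Genes of leaving the thymus were lower in cluster 2 than in clusters 0 and 3. Klf2 stood at 251 CPM in ICI 4 and 69.1 in isotype in cluster 2, against 1239 and 1028 in cluster 0. S1pr1 stood at 53.7 and 9.30 CPM in cluster 2, against 440 and 252 in cluster 0. Ccr7 was in between, with 997 and 485 CPM in cluster 2, 145 and 62.2 in cluster 11, and 1683 and 1741 in cluster 0. The same order held for H2-D1, a classical MHC class I chain, at 642 and 355 CPM in cluster 11, 1512 and 614 in cluster 2 and 3155 and 2409 in cluster 0. Nr4a1, an immediate response gene of receptor signals, stood at 653 and 560 CPM in cluster 2, against 175 and 216 in cluster 0 and 673 and 554 in cluster 11, while Cd69 stood at 192 and 153 CPM, against 166 and 127 in cluster 0.

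**Figure D2:**
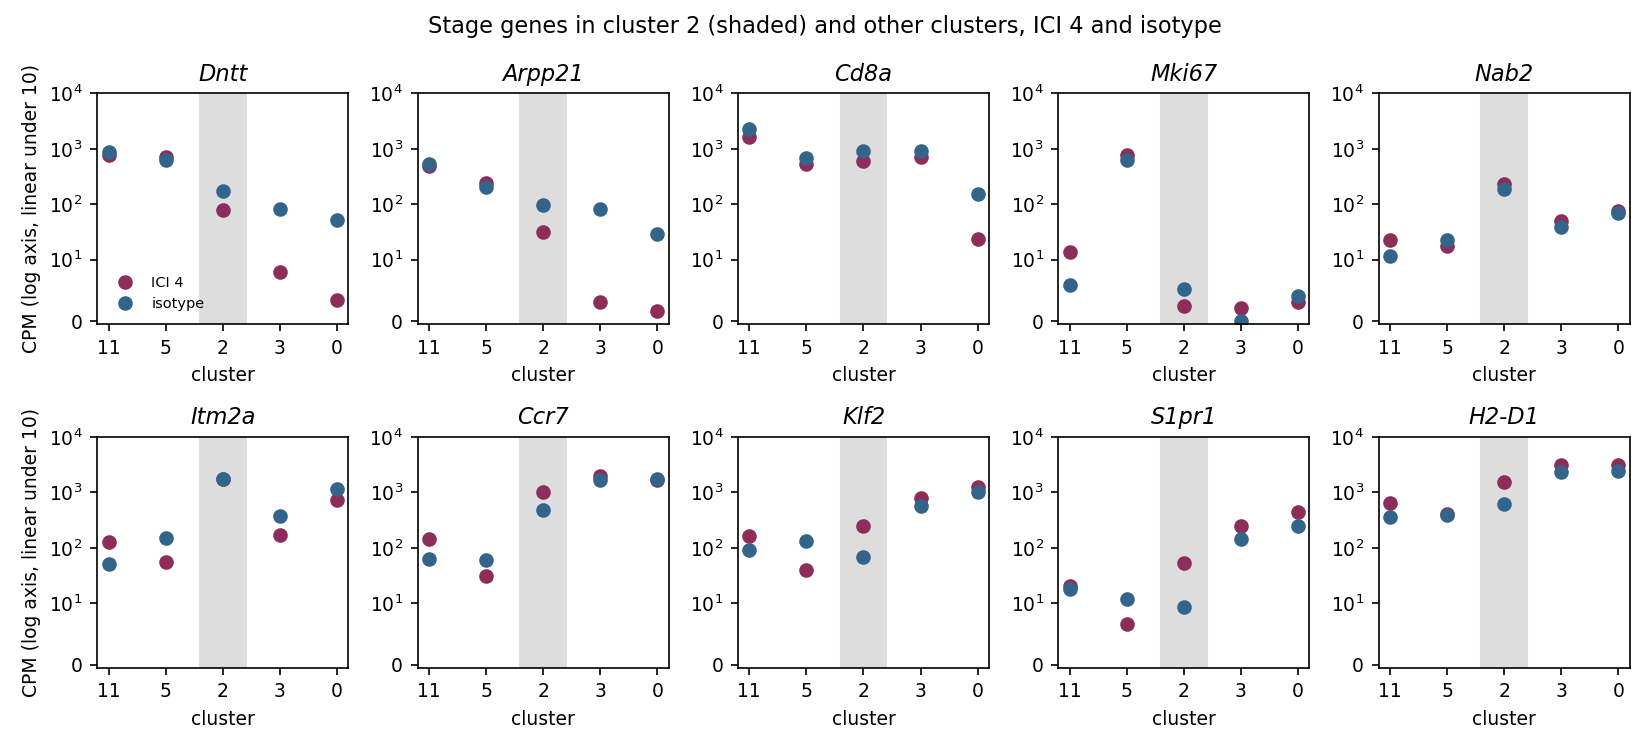
CPM of 10 genes (vertical axes, logarithmic above 10 and linear below) in clusters 11, 5, 2, 3 and 0 (horizontal axes, an order chosen for display) in ICI 4 and isotype; each point is 1 library with no error bar, and cluster 2 is shaded. Dntt was 775 and 865 CPM in cluster 11 and 80.3 and 174 in cluster 2, and Klf2 was 251 and 69.1 CPM in cluster 2 and 1239 and 1028 in cluster 0.

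Coreceptors were read in each cell after thinning to 1000 UMIs, which left out 53, 7, 16, 4 and 0 cells of ICI 1 to 4 and isotype. Cells with UMIs of both Cd4 and Cd8a were 0 of 65 in ICI 1, 0 of 13 in ICI 2, 0 of 5 in ICI 3, 5.41% of 591 in ICI 4 and 11.5% of 253 in isotype. A count of 0 allows shares of up to about 4.62% in ICI 1, 23.1% in ICI 2 and 60.0% in ICI 3, by counting error only. These limits are 3 divided by the number of cells, an approximation that is rough for 13 and 5 cells. Clusters 8 (natural killer-like) and 10 (type 2 innate lymphoid-like), which should lack both, were read at the same thinned depth. In cluster 8 the share was 1.20% in ICI 4 and 2.63% in isotype, with median UMIs of 5554 and 4351.5 before thinning. A Cd3e UMI was seen in 63.5% and 46.1% of these thinned cells. In cluster 10 both coreceptors were seen in 0 of 67 ICI 4 and 0 of 117 isotype cells, and Cd3e in 4.48% and 5.13%. In cluster 11 the share was 32.0% in ICI 4 and 38.5% in isotype. Within cluster 2, Cd8a alone was seen in 29.1% of ICI 4 and 31.6% of isotype cells, Cd4 alone in 17.1% and 16.6%, and neither in 48.4% and 40.3%. All 4 ICI libraries were below isotype in the share with both, and the mean difference, ICI minus isotype, was -10.1 percentage points. Its exact two-sided permutation p was 0.2, which is the smallest that 4 libraries against 1 allow, and 0.6 after adjustment over 9 cell measures. The difference was -8.76 points with ICI 1 and ICI 4 alone. Without thinning, the mean share was 5.26% in the ICI libraries and 26.5% in isotype.

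**Figure D3:**
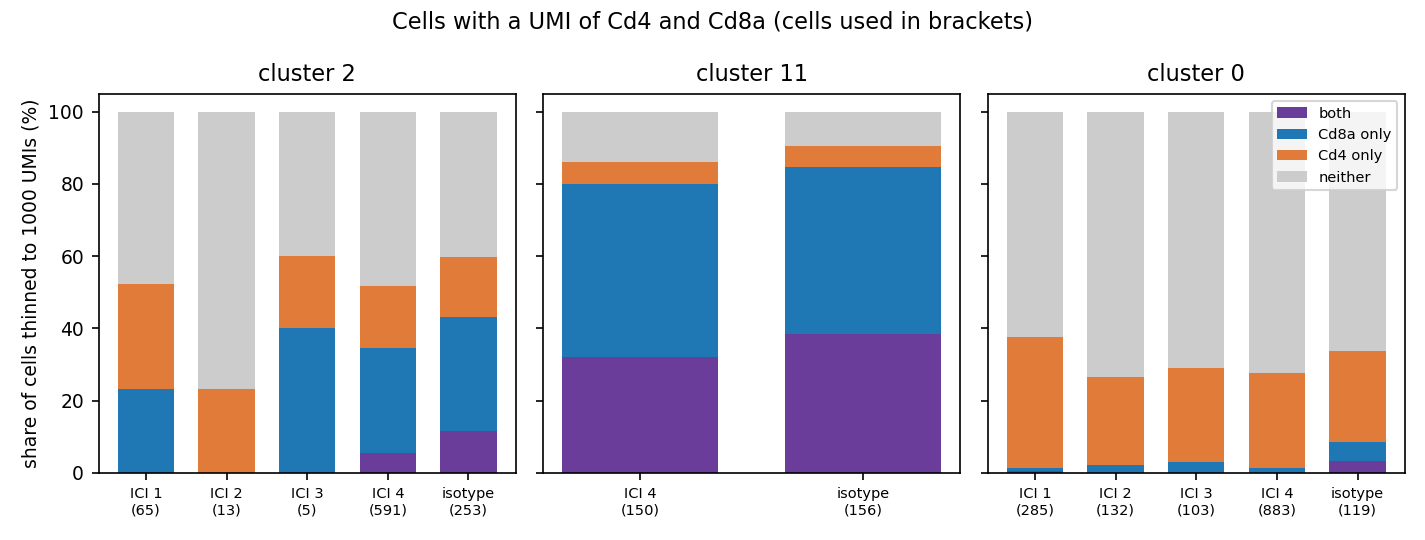
Share of cells with a UMI of Cd4, Cd8a, both or neither after thinning to 1000 UMIs (vertical axis, %), stacked by library (horizontal axes, number of cells used in brackets) for clusters 2, 11 and 0. Both coreceptors were seen in 5.41% of ICI 4 and 11.5% of isotype cells of cluster 2 and in 32.0% and 38.5% of cluster 11.

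Many receptor segments were seen in the 2 deepest libraries of the cluster. In ICI 4, 68 of 77 Trav segments were seen among 2910 UMIs, and in isotype 61 of 77 among 1250 UMIs. Trav3-3 was the most abundant in both, with 7.42% and 9.76% of Trav UMIs. Of 25 Trbv segments, 24 were seen in ICI 4 and 21 in isotype, with at most 12.5% and 12.7% of UMIs in 1 segment. ICI 1 to 3 had 346, 38 and 92 Trav UMIs over 51, 19 and 25 segments. Of the Trbv segments, 19, 8 and 14 were seen in ICI 1 to 3, with 13.5%, 26.2% and 24% of UMIs in 1 segment. Segments of a family are near-identical, so their separate counts are uncertain.

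The first comparison asked how large the cluster was in each library. It made up 7.75%, 1.64%, 1.81% and 11.9% of cells in ICI 1 to 4 and 18.7% in isotype, with exact Clopper-Pearson 95% intervals of 10.98% to 12.8% in ICI 4 and 16.7% to 20.9% in isotype that cover counting error only. All 4 ICI libraries lay below isotype, with a mean of 5.76% ± 4.96 (SD, n = 4), and the exact two-sided permutation p was 0.2, the smallest possible, raw and adjusted over clusters 2, 5 and 11. The labels do not say whether ICI 1 to 3 came from separate mice, and with these 3 summed to 1 library the exact permutation p was 0.667 for a mean of 7.96%. For ICI 1 and ICI 4 alone the mean was 9.80% and the exact permutation p 0.333, the smallest that 2 against 1 allow. Of the cells of clusters 2, 5 and 11, cluster 2 held 58.4%, 50%, 44.7% and 45.9% of cells in ICI 1 to 4 and 44.1% in isotype, so the direction turned: every ICI library was above isotype. A lower share of all cells can come from fewer cells of the cluster or from more of the others, and the files hold no absolute cell number.

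**Figure D4:**
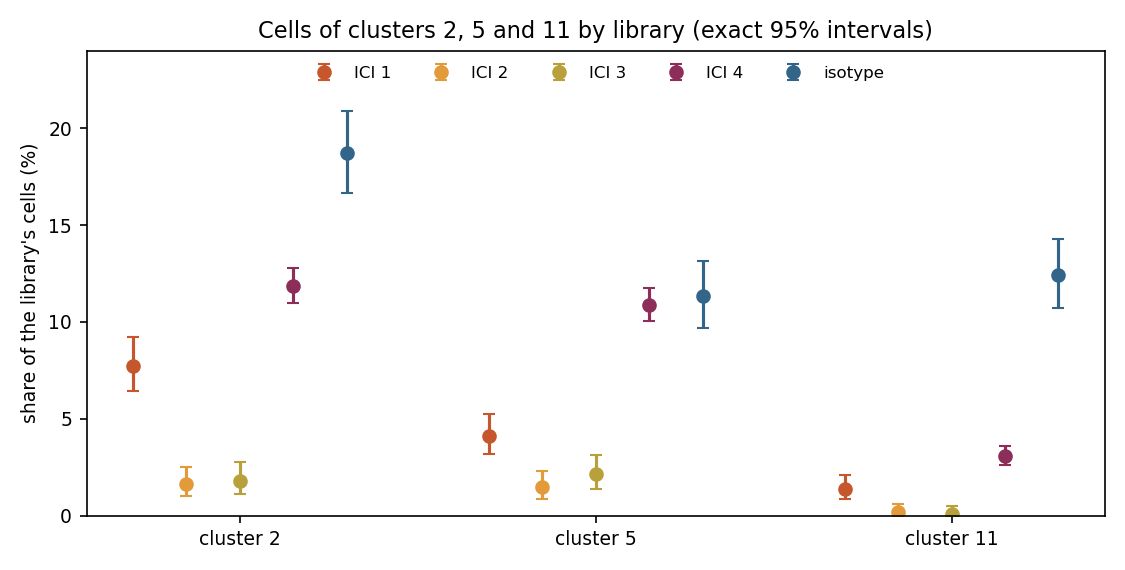
Share of each library's cells (vertical axis, %) in clusters 2, 5 and 11 (horizontal axis); points are libraries and bars exact 95% binomial intervals. Cluster 2 held 18.7% of isotype cells and between 1.64% and 11.9% of the ICI libraries' cells.

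The second comparison asked which genes differed within the cluster between ICI and isotype. Counts were summed per library and tested with edgeR's quasi-likelihood model, which takes the spread of the single isotype library from that of the ICI libraries. With all 4 ICI libraries, 2 of 5859 genes passed an adjusted p of 0.05 (0.0341%), both lower in ICI, and 107 had an unadjusted p under 0.05. DESeq2 called 0, with 85 at an unadjusted p under 0.05. In the fit with ICI 1 and ICI 4 alone, 15 of 8673 genes passed (0.173%). Leaving out ICI 1, ICI 2, ICI 3 or ICI 4 in turn gave 22, 19, 4 and 79 genes, so the count depended on each library. Among all 5859 genes of the fit with 4 ICI libraries, 2891 had a positive and 2968 a negative log2 fold change. On simulated counts this fit recovered 20% of 4-fold changes, so a gene that did not pass may still differ. Levels in summed cells do not separate fewer expressing cells from less RNA per cell.

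The 2 genes rested on few isotype cells and are no T cell genes. Ighg2b, an antibody heavy chain constant gene named here after its values were seen, had 1 UMI in ICI 1, 0 in ICI 2 to 4 and 149 in isotype, of which 148 lay in 1 cell. Its edgeR adjusted p was 0.000711, and 7.80e-12 with ICI 1 and ICI 4 alone, both resting on that cell. The same isotype library had 549 of its 551 Igkc UMIs, the kappa light chain, in 1 cell of the cluster. Tg, thyroglobulin, the main product of thyroid follicular cells, had 0, 0, 1 and 3 UMIs in ICI 1 to 4 and 105 UMIs in 9 cells of isotype (edgeR log2 fold change -6.04, SE 1.01, adjusted p = 0.0116; -6.61, SE 0.90, adjusted p = 8.27e-10 with ICI 1 and ICI 4 alone). In the other cells of the isotype library, Tg stood at 221 CPM, against 140 in cluster 2. With the cell of most UMIs left out for each gene, 0 genes passed with edgeR and 100 had an unadjusted p under 0.05, and the Tg difference was -5.19 with an edgeR adjusted p of 0.376.

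The 15 genes of ICI 1 and ICI 4 alone, named after their values were seen, were Rag1, Ighg2b, Igkc, Tg, Pth and Mt1, lower in ICI, and Ms4a4b, H2-Q6, Il6ra, Xist, Gm2682, Igkv3-10, Hba-a1, Hbb-bs and Hbb-bt, higher in ICI. All 22 Igkv3-10 UMIs lay in ICI 1. Of the Xist UMIs, 157 lay in ICI 1 and 1 in ICI 4, and of those of Gm2682, 34 and 8. The globin genes were at 0 UMIs in ICI 1, and 70.0% of the 2818 Hbb-bs UMIs of ICI 4 lay in 1 cell. Pth, parathyroid hormone, had 97 UMIs in 46 isotype cells of the cluster and 18 UMIs in ICI 4, and stood at 793 CPM in the other isotype cells against 129 in the cluster. These hormone, globin and antibody transcripts mark other cell types and their part in the other differences was not tested.

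Genes of receptor rearrangement and of the double-positive stage came first in the order of development. Rag1 had 0, 0, 0 and 4 UMIs in ICI 1 to 4 and 65 UMIs in 26 cells of isotype. The isotype level of 86.4 CPM lies under the 3-UMI floors of ICI 2 and ICI 3 (88.8 and 138 CPM), so 0 UMIs there say little. The 4 ICI libraries were all lower than isotype, with a log2 fold change of -5.57 (SE 1.18, edgeR adjusted p = 0.125), and of -5.55 (SE 0.88, adjusted p = 4.63e-07) with ICI 1 and ICI 4 alone. It also passed with any of ICI 1 to 3 left out, with adjusted p from 1.00e-04 to 0.0282. Rag1 was spread over the isotype clusters, at 39.5 CPM in cluster 0, 67.5 in cluster 3, 80.5 in effector cluster 1, 59.2 in cluster 11 and 86.4 in cluster 2, and at 71.4 in all isotype cells outside cluster 2, and the part of RNA from other cells in it was not tested. In ICI 4, Rag1 stood at 61.1 CPM in cluster 5, at 11.3 in cluster 11 and at 0 in cluster 0. Dntt stood at 15.6, 0, 0 and 80.3 CPM in ICI 1 to 4 and at 174 in isotype (edgeR log2 fold change -1.97, SE 0.74, adjusted p = 0.9998; -1.68, SE 0.64, adjusted p = 0.99996 with ICI 1 and ICI 4 alone), and isotype cluster 1 held 118 CPM of it. Rag2 and Ptcra, the surrogate alpha chain, had 3 and 7 UMIs in ICI 4, 8 and 7 in isotype and 0 in the other libraries, and were not tested.

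Of 10 genes on this list, 7 were tested, all 7 with a negative log2 fold change, median -1.71 beside -0.01 over all genes tested. In 4 of them every ICI library lay below isotype, against 14.9% of all genes tested. Of these, Rag1, Dntt and Arpp21 had 0 UMIs in both ICI 2 and ICI 3, the 2 shallowest libraries. Both ICI 1 and ICI 4 lay below isotype in 5 of 7, against 29.2% of all genes in the fit of these libraries, and 1 passed, Rag1.

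The coreceptor genes gave Cd4 at 438, 385, 275 and 271 CPM in ICI 1 to 4 and at 356 in isotype, with ICI libraries on both sides. Cd8a stood at 375, 29.6, 596 and 592 CPM in ICI 1 to 4, all below the 917 of isotype (log2 fold change -1.30, SE 0.69, edgeR adjusted p = 0.9998). Cd8b1, its partner chain, stood at 229, 118, 229 and 372 CPM, all below the 464 of isotype. None of the 3 genes passed, and with ICI 1 and ICI 4 alone the Cd8a difference was -0.98.

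The given markers were all tested, but the cluster was made from these genes, so their differences between groups only describe it. All 6 log2 fold changes were negative, with a median of -1.24 over the 4 ICI libraries and -0.50 with ICI 1 and ICI 4 alone, and none passed in either fit. Without ICI 4, Itm2a (-2.73), Ccr9 (-2.24), Sox4 (-4.28) and Dntt (-3.99) passed the edgeR threshold, as the ICI side then held ICI 1 and the low ICI 2 and ICI 3.

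Late maturation genes were the other end of the sequence. Ms4a4b, a membrane protein of mature T cells, stood at 672, 1065, 1422 and 101 CPM in ICI 1 to 4 and at 22.6 in isotype. Every ICI library was above isotype, with a log2 fold change of 4.86 (SE 1.09, edgeR adjusted p = 0.207), and the gene passed with ICI 1 and ICI 4 alone (3.93, SE 0.88, adjusted p = 0.00667) and with ICI 1, ICI 2 or ICI 4 left out (4.80, 4.58 and 5.29). Il6ra, the interleukin 6 receptor chain, stood at 177, 59.2, 45.9 and 25.1 CPM in ICI 1 to 4 and at 6.64 in isotype, and its difference was 3.44 (SE 1.12, edgeR adjusted p = 0.9998) and 3.59 (SE 0.91, adjusted p = 0.0459) with ICI 1 and ICI 4 alone. S1pr1 stood at 104, 59.2, 45.9 and 53.7 CPM in ICI 1 to 4 and at 9.30 in isotype, from 7 UMIs (2.78, SE 0.91, edgeR adjusted p = 0.9998; 2.89, SE 0.86, adjusted p = 0.270 with ICI 1 and ICI 4 alone). All ICI libraries again lay above isotype, those of ICI 2 and ICI 3 on 2 UMIs and 1 UMI.

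Klf2, which drives S1pr1, stood at 161, 148, 0 and 251 CPM in ICI 1 to 4 and at 69.1 in isotype, so ICI 3 lay below (edgeR 1.19, SE 0.83; 1.54, SE 0.74 with ICI 1 and ICI 4 alone). Ccr7 stood at 510, 29.6, 0 and 997 CPM and at 485 in isotype, with the difference at -0.20 (SE 0.96) over 4 ICI libraries and at 0.59 (SE 0.61) over ICI 1 and ICI 4. Its direction thus depended on the 41 cells of ICI 2 and ICI 3. Itgb7, an integrin chain of gut homing, stood at 328, 355, 184 and 72.2 CPM in ICI 1 to 4 and at 19.9 in isotype. Its difference was 3.32 (SE 0.95, edgeR adjusted p = 0.831) and 3.13 (SE 0.83, adjusted p = 0.0731) with ICI 1 and ICI 4 alone, and it passed the edgeR threshold only in the fit without ICI 4 among the 16 fits run (3.74, adjusted p = 0.00394). The survival receptor Il7r stood at 250 CPM in ICI 4 and at 191 in isotype.

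Of the 14 late maturation genes, all were tested and 11 had a positive log2 fold change, with a median of 1.31 against -0.01 over all genes tested. In 8 every ICI library lay above isotype, against 12.5% of all genes, and 0 passed. Both ICI 1 and ICI 4 lay above isotype in 11 of 14, against 35.3% of all genes, and 2 passed in the fit of these libraries, Ms4a4b and Il6ra. The 41 cells of ICI 2 and ICI 3 carried effector genes, and these genes are also abundant in mature T cells: Ms4a4b stood at 958 CPM in cluster 1 of ICI 4. The other cells of the ICI libraries also held more of it, with Ms4a4b at 927, 1123, 1069 and 483 CPM outside the cluster in ICI 1 to 4 and at 212 in isotype, and the part of this library-wide difference in the result was not tested. Il6ra in cluster 0 stood at 222, 45.4, 51.8 and 97.1 CPM in ICI 1 to 4 and at 29.1 in isotype. The part of that difference in the Il6ra result was not tested either. Of 12 migration genes 9 were tested, 6 with a positive and 3 with a negative log2 fold change, and 0 passed. Of 11 tested with ICI 1 and ICI 4 alone, both lay above isotype in 8 and below it in 2, and 0 passed. Over all genes of that fit, 35.3% lay above in both and 29.2% below.

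MHC class I genes, whose products show peptides to CD8 T cells, were read from a list of 13, of which none passed the test. H2-D1 stood at 2068, 4646, 3854 and 1512 CPM in ICI 1 to 4 and at 614 in isotype (log2 fold change 2.09, SE 0.55, edgeR adjusted p = 0.678; 1.46 with ICI 1 and ICI 4 alone, adjusted p = 0.99996). H2-K1 stood at 141, 1627, 917 and 98.3 CPM and at 43.9 in isotype (3.64; 1.33 with ICI 1 and ICI 4 alone), and B2m, the shared light chain, at 1057, 2722, 2615 and 766 CPM and at 502 (1.596; 0.77). In these 3 genes every ICI library was above isotype, ICI 4 the closest to it. Without ICI 4, H2-D1 (2.32) and H2-K1 (4.08) passed the edgeR threshold, as did H2-K1 without ICI 1 (3.94) or with no filter (3.50). All 13 genes of the list, which adds the peptide transporter, the immunoproteasome and the regulator Nlrc5, had a positive log2 fold change, with a median of 0.85, and 9 had every ICI library above isotype, against 12.5% of all genes tested. In Tap2, Psmb8, Psme1 and Psme2, named after their values were seen, 1 ICI library lay below. Of the myeloid list 10 of 10 tested genes were positive, with a median of 2.64 (0.78 with ICI 1 and ICI 4 alone), and of the effector list 9 of 9. A sparse gene can enter the test through 1 library where it is high. C1qa did so with 10 UMIs (459 CPM) in ICI 3, against 6 UMIs in isotype. The myeloid and effector signs were thus in part fixed in advance and are not comparable with those of class I. The part of myeloid and effector cells, and of the mitochondrial percent of 4.76 in ICI 1, in the class I levels was not tested. For ICI 1 and ICI 4 alone the median was 0.66, with 11 of 13 above isotype in both, against 35.3%, and again 0 passed. Outside the cluster, H2-D1 stood at 3330, 4374, 4221 and 2413 CPM in ICI 1 to 4 and at 1734 in isotype. In cluster 0, H2-K1 stood at 197, 1087, 1219 and 219 CPM in ICI 1 to 4 and at 171 in isotype, again highest in ICI 2 and ICI 3. The part of such library-wide differences in the H2-D1 and H2-K1 results was not tested. The nonclassical H2-Q6 passed with ICI 1 and ICI 4 alone, at 760, 385, 229 and 120 CPM in ICI 1 to 4 and 31.9 in isotype (3.63, SE 0.85, edgeR adjusted p = 0.0136). Outside the cluster, H2-Q6 stood at 1116, 204, 196 and 304 CPM in ICI 1 to 4 and at 177 in isotype. The part of this library-wide difference in the H2-Q6 result was not tested. Class I genes are near-identical in sequence, so reads may be split between them and the separate levels are uncertain.

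Promoter stretches are shown for H2-K1, H2-D1, H2-Q6 and B2m, whose levels lay above isotype in every ICI library and whose windows held the motif below. Windows of 300 bases, from 250 before to 50 after the start, came from RefSeq on GRCm38.p6, which is the C57BL/6J sequence and not that of NOD. The core interferon response motif TTTCNNTT was searched on both strands, and each line gives the stretch around 1 match, 5′ to 3′ on the gene's strand, with the match in capitals.
H2-K1: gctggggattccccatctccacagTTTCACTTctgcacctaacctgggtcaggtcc
H2-D1: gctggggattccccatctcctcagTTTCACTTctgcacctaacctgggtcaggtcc
H2-Q6: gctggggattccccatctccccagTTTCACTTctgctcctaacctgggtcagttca
B2m: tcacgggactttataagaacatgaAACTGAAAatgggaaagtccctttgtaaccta
They lie at chr17:34000406-34000461 on the minus strand, chr17:35262920-35262975 and chr17:35424674-35424729 on the plus strand, and chr2:122147526-122147581 on the plus strand, where the B2m match is read on the other strand. The matches begin 90, 150, 152 and 137 bases before the annotated start. H2-D1 and H2-K1 differed at 1 of 56 bases, and H2-D1 and H2-Q6 at 4. Of the 13 listed class I genes, 11 had a window and 5 of these held TTTCNNTT, as did H2-Q6 and H2-Q7, which are outside the list, against 23.9% of all 32851 windows. Tap1, Tapbp, Psmb9 and Psmb10 also lay above isotype in every ICI library, and their windows held 0 matches. H2-T23 and H2-Q7, above isotype in every ICI library too, held 2 and 1 and are not shown. A match describes letters only.

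**Figure D5:**
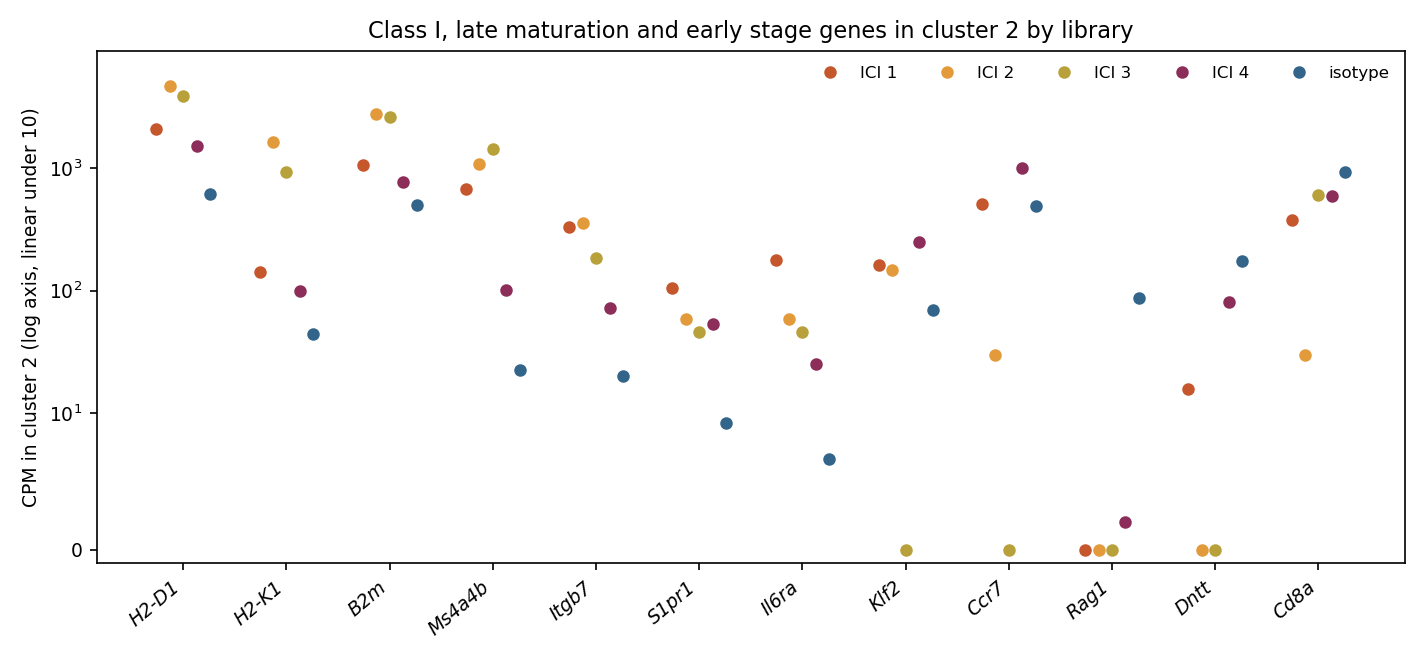
CPM in cluster 2 (vertical axis, logarithmic above 10 and linear below) of 12 genes (horizontal axis); each point is 1 library with no error bar. H2-D1, H2-K1, B2m, Ms4a4b, Itgb7, S1pr1 and Il6ra lie above isotype in all 4 ICI libraries, while Rag1, Dntt and Cd8a lie below it.

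The cluster was also split by Ccr7, since it marks cells past selection. A Ccr7 UMI was seen in 44.9% of ICI 1, 53.3% of ICI 4 and 36.0% of isotype cells, and cells with one had more UMIs, with medians of 3418 against 2726 in ICI 4 and 3275 against 2190.5 in isotype. H2-D1 stood at 2127, 1992 and 849 CPM in cells with a Ccr7 UMI and at 1986, 793 and 401 CPM in cells without one, in ICI 1, ICI 4 and isotype. In both subsets both ICI libraries were above isotype. Ikzf2, the factor Helios, went the other way, at 188 CPM in cells with a Ccr7 UMI and 704 in cells without in ICI 4, and at 184 and 588 in isotype. Nr4a1 stood at 429 and 987 CPM in ICI 4 and at 293 and 802 in isotype, again lower in cells with Ccr7. Cd69, an early activation antigen, followed the same pattern, at 109 and 317 CPM in ICI 4 and 83.7 and 216 in isotype.

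Receptor-signal genes showed no difference past the threshold, in fits that can miss moderate changes. Nr4a1 stood at 313, 0, 688 and 653 CPM in ICI 1 to 4 and at 560 in isotype, Egr1 at 130, 29.6, 138 and 242 CPM and at 140, and Cd69 at 203, 118, 275 and 192 CPM and at 153. Of 14 genes on the list 12 were tested, 5 positive and 7 negative, and 0 passed. Of 18 receptor complex and proximal signalling genes, 6 were positive and 12 negative, and 0 passed. With ICI 1 and ICI 4 alone, 0 of 13 and 0 of 18 passed, both libraries lay above isotype in 2 and 5 genes, and both lay below in 1 and 6. The shares over all genes of that fit were 35.3% above and 29.2% below. Bcl2l11, which encodes the death factor Bim, stood at 57.3, 0, 91.8 and 261 CPM and at 252 in isotype.

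Among 16 lineage regulators, 15 were tested, 3 positive and 12 negative with a median of -0.55, and none passed. Every ICI library lay below isotype in 6 of the 15 and above it in 2, against 14.9% and 12.5% of all genes tested. With ICI 1 and ICI 4 alone 0 of 16 passed, with a median of -0.11. Zbtb7b, the factor that fixes the CD4 fate, stood at 135, 59.2, 45.9 and 12.5 CPM in ICI 1 to 4 and at 9.30 in isotype, above isotype in 4 of 4 libraries but close to it in ICI 4, and on 2 UMIs and 1 UMI in ICI 2 and ICI 3 (log2 fold change 2.56, SE 1.17, edgeR adjusted p = 0.9998; 2.56, SE 0.86, adjusted p = 0.772 with ICI 1 and ICI 4 alone). Gata3, which acts with it, stood at 104, 178, 91.8 and 82.3 CPM and at 46.5, and Runx3, the factor of the CD8 fate, at 57.3, 207, 45.9 and 87.8 CPM and at 63.8. Id3, which follows receptor signals, stood at 370, 59.2, 0 and 280 CPM and at 334.

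The drug targets were sparse in the cluster. Pdcd1, which encodes PD-1, had UMI counts of 8, 1, 0 and 62 in ICI 1 to 4 and of 21 in isotype, or 31.1 CPM in ICI 4 and 27.9 in isotype. Ctla4 had 6, 0, 1 and 56 UMIs and 30 in isotype, or 28.1 and 39.9 CPM. Cd28, the costimulatory receptor whose ligands CTLA-4 also binds, was more abundant by CPM, at 651, 385, 459 and 498 in ICI 1 to 4 and at 530 in isotype. Of 12 checkpoint genes 4 were tested, 3 positive and 1 negative, and 0 passed, nor did any of 8 with ICI 1 and ICI 4 alone. Foxp3, the factor of regulatory T cells, had 2 UMIs in ICI 4, 4 in isotype and 0 elsewhere, and 0 of 6 tested genes of the regulatory and agonist selection list passed, and 0 of 7 with ICI 1 and ICI 4 alone. Tnfrsf18, which encodes the receptor GITR, stood at 214, 118, 321 and 581 CPM in ICI 1 to 4 and at 346 in isotype, so only ICI 4 lay above it.

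Cytokine genes of effector T cells were at or near 0 in the libraries that carried the markers. Ifng, interferon gamma, had 3 UMIs in ICI 3 and 0 in the other libraries, and Il17a had 0 UMIs in all 5. Of 16 effector genes 9 were tested, all 9 positive, beside 2891 of 5859 over all genes tested, and 0 passed. A gene can enter the test through 1 library alone. Cxcr6 and Ccl5, with 0 and 4 UMIs in isotype, entered through ICI libraries where they were high. The positive signs were thus in part fixed in advance. With ICI 1 and ICI 4 alone 0 of 6 passed. In ICI 1 and ICI 4 the summed level of the list was 385 and 284 CPM, against 227 in isotype, 6332 in ICI 2 and 8028 in ICI 3. Interferon response genes were split, with 10 positive and 10 negative of 20 tested, 0 passed and a median of -0.05, and 0 of 24 passed with ICI 1 and ICI 4 alone. Isg15, an interferon-induced ubiquitin-like protein, stood at 67.7, 0, 0 and 187 CPM in ICI 1 to 4 and at 226 in isotype, all below it.

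Cell cycle calls were read beside cell cycle genes. The deposited calls put 23.7%, 30.0%, 47.6% and 1.85% of the cluster's cells in S phase in ICI 1 to 4 and 8.30% in isotype, and 16.1%, 30.0%, 19.0% and 2.02% in G2M, with 3.95% in isotype. Mki67 had UMI counts of 3, 0, 0 and 5 in ICI 1 to 4 and of 4 in isotype, or 15.6 CPM in ICI 1 and 5.32 in isotype. The 3-UMI floors of ICI 2 and ICI 3 were 88.8 and 138 CPM, so 0 UMIs there say little. Whether the calls mark cycling cells was not tested. Within cluster 2 the libraries with high shares also had the lowest UMIs per cell. In cluster 0 the S shares were 40.6% in ICI 2 and 44.8% in ICI 3, at median UMIs of 2687 and 3252. They were 1.92% in ICI 4 and 10.1% in isotype there, at 3751 and 3506. The part of depth and of library in the calls was not tested. Of 16 proliferation genes 8 were tested, 3 positive and 5 negative, and 0 passed, nor did any of 10 with ICI 1 and ICI 4 alone. Stmn1, a tubulin regulator of dividing and immature cells, stood at 193, 59.2, 138 and 337 CPM and at 529 in isotype.

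Of 18 dissociation and stress genes 14 were tested, 3 positive and 11 negative, and 0 passed. With ICI 1 and ICI 4 alone both lay below isotype in 8 of 16 and above it in 1, and 0 passed. Among all genes of that fit these shares were 29.2% and 35.3%. Of the other cell types, B cell genes summed to 125, 414, 551 and 160 CPM in ICI 1 to 4 and 917 in isotype, with Ms4a1 at 0 in all 5 libraries. Thyroid epithelium summed to 0, 0, 45.9 and 5.02 CPM in ICI 1 to 4 and 146 in isotype, with Tshr at 0 throughout. Parathyroid genes summed to 0, 0, 0 and 11.03 CPM and 150, and red cell genes to 0, 0, 0 and 3009 CPM and 77.1. Thymic epithelium genes reached at most 46.9 CPM over 4 of 5 genes, all of it Ccl25 in that library, ICI 1. Fibroblast genes were at most 6.64 CPM, and natural killer, gamma-delta T and type 2 innate lymphoid lists at most 45.9, 91.8 and 88.8 CPM, each from 1 to 3 UMIs in ICI 2 or ICI 3. Endothelial genes summed to 0 to 135 CPM, with Kdr and Cdh5 at 0 throughout.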

How the data were processed

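UMI counts of 18767 genes in 10275 cells were deposited by the authors as whole numbers, with a cell table that gives each cell's library, cluster, phase call, UMI total and mitochondrial percent. Cell Ranger, Seurat and build mm10 are named, per the submitters' processing notes, and versions are not given in the sources used here. Of the cell table, the deposited mitochondrial percent was summarised as a median per library and the deposited phase calls as shares. Sums per cell equalled the deposited totals in every cell.

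The members and the 26 gene lists were chosen with earlier results of these data known. Counts were summed per library over cluster 2 and fitted with edgeR 4.0.16 (TMM, filterByExpr with a minimum count of 10, Benjamini-Hochberg over all genes tested, threshold 0.05), with DESeq2 1.42.0 as an alternative. CPM are summed counts per 1000000 without further scaling. The fit was tested on simulated data, with changes set among the more abundant genes. It recovered 20% of 4-fold and 89% of 16-fold changes, with 6 false calls among 115. Shares and medians were compared by exact permutation over libraries, and thinning used 1000 UMIs per cell. No doublet caller was run: cells with a T cell UMI and at least 2 UMIs of B cell or of myeloid genes were counted as mixed (2, 0, 3, 7 and 9 of the cluster in ICI 1 to 4 and isotype) and removed in an alternative. Genes were named by rank among those past the threshold (10 per direction, all ICI libraries on 1 side of isotype, without receptor, mitochondrial and ribosomal genes), from a set of genes given whatever their result, and as members of lists. Foxn1 was not analysed here, and some genes that the naming rule covers are not reported here. P-values measure only the spread between libraries of pooled mice, which may be technical.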

Additional observations from a re-analysis of the deposited data

Results flagged for a closer look

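In 9 of 54 sets of 4 ICI values checked, 1 library lay far from the other 3, and chance does this in about 1 set in 20. ICI 4, the deepest library, was the high one for the share with both Cd4 and Cd8a (5.41%), Sox4 (897 CPM), Rag1 (2.01 CPM), Rag2 (1.505 CPM), Ptcra (3.51 CPM) and Foxp3 (1.003 CPM), where the other 3 libraries were at 0 or, for Sox4, at 93.8 CPM or less. The floor of 3 UMIs was 1.505 CPM in ICI 4 and 15.6, 88.8 and 138 CPM in ICI 1 to 3, so levels such as those of Rag1 were not detectable in the latter. ICI 3 was the high one for Ifng (138 CPM, from 3 UMIs) and Tg (45.9 CPM, from 1 UMI), and ICI 1 for Ighg2b (5.21 CPM, from 1 UMI).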

How the results depend on the processing

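Of 624 alternative values for 48 results, 558 kept the direction and the side of the threshold. The count of genes past the threshold was 2 and depended on the libraries: leaving out 1 ICI library gave 4 to 79, the highest without ICI 4 and 22, 19 and 4 without ICI 1, ICI 2 and ICI 3. It was 27 with no filter, 6 with ICI 1 to 3 summed, 14 with shared barcodes removed, 17 in G1 cells, 15 without ICI 2 and ICI 3 (chosen after seeing the data), 0 with the highest cell of each gene left out and 0 with DESeq2. ICI 2 and ICI 3 fell under 20 cells and left the fit when shared barcodes were removed or G1 cells kept. Directions turned for the share within clusters 2, 5 and 11 (5.68 points), the mitochondrial percent (-0.039 without ICI 1 to 1.20 without ICI 2) and Cd4 alone thinned to 1500 UMIs (-0.21 points). They also turned for Egr1 (-0.018 with no filter, -0.55 without ICI 4 to 0.25 without ICI 2), Cd28 (0.030 without ICI 2 and ICI 3, 0.020 with shared barcodes removed) and Ccr7 (-1.10 without ICI 4 to 0.12 without ICI 2, 0.11 without ICI 3, 0.59 without both, 0.49 with ICI 1 to 3 summed, 0.60 with shared barcodes removed, 0.092 with mixed cells removed, 0.57 in G1 cells), none of which passed. The cause was not tested. No paired analysis was possible because the isotype group has 1 library. Depth limits ICI 2 and ICI 3 most, where 3 UMIs are 88.8 and 138 CPM.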
